A study of Mus musculus with 4 samples.

Results

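Timing transition regions are the stretches of a chromosome over which replication passes from an early to a late domain. Here they were the 983 autosomal bins of 200 kb whose adjacent bins on either side differed by 1.0 log2 or more in replication timing. They made up 8.68% of the 11325 measured bins, 9.38% of the 10485 bins with both neighbours measured, and 196.6 Mb in all. The values of the control and non-induced arrays, averaged into a reference profile, chose these bins. The steps on those arrays therefore describe the choice, while the KO and induced arrays took no part in it.

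Mammalian chromosomes replicate in large domains whose many origins fire at about the same part of S phase, separated by transitions that hold few origins of their own or are crossed by forks leaving the earlier domain. Many transitions lie near the borders of chromatin compartments, so the place and steepness of a transition record where early, open chromatin meets late, compact chromatin. Suv4-20h enzymes are histone H4 methyltransferases that are associated with heterochromatin, which replicates late.

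The cells were mouse embryonic fibroblasts, which are connective tissue cells grown in culture, and each of 4 groups had 1 array of 2 colours. The groups were a control, a KO whose label states deletion of a floxed Suv4-20h1 allele, a non-induced suv4-20h mutant and an induced suv4-20h mutant. All 4 share the same protocol text, with BrdU given for 1 hour at 50 µM, 80000 cells sorted into 2 fractions, early and late S phase, and a 24 hour step with 1 mM 4-hydroxytamoxifen. The labels do not say which cells received the drug or how the induced cells were induced, and they give the fibroblast line different numbers in different fields. Early DNA carried Cy3 and late DNA Cy5 on every array, with no dye swap. A timing value here is log2 of the early signal over the late one, higher for earlier replication, with the autosomal probe median of every array set to 0. Control and KO lay on 1 slide, and non-induced and induced on another, so that between those pairs a slide effect and a cell effect cannot be told apart.

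With 1 array in a group no difference between groups has a replicate check or a test. The number of arrays limits the precision, and the 95% exact binomial intervals given with shares cover counting error over bins only. From the 10th to the 90th percentile, bins spanned 1.81 log2 on control, 2.32 on KO, 2.07 on non-induced and 2.70 on induced, so steps are also given as a share of that spread. Probes well above background in both channels made up 88.5% to 94.7% of an array. The bin median lay at -0.13 on control, -0.31 on KO, -0.20 on non-induced and -0.40 on induced after this centring.

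Consecutive transition bins of the same direction formed 675 transitions, of which 375 were 1 bin long, 292 were 2 bins and 8 were 3 bins. The early side lay at the higher coordinate in 340 of them and at the lower coordinate in 335. Between transitions that face each other, 252 early domains had a median length of 1.55 Mb (interquartile range 0.8 to 3.3) and 245 late domains a median of 2.0 Mb (1.0 to 4.2). Another 159 neighbouring transitions ran in the same direction. Transition bins made up 6.45% of the bins of chromosome 4 and 12.2% of those of chromosome 8, the lowest and highest shares among the 19 autosomes. They held 14.3 probes on average, against 16.1 in the neighbour on the early side and 13.0 in the neighbour on the late side. Their median distance to a chromosome end, 33.2 Mb, was close to the 31.6 Mb of other bins.

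At the limit of the choice, the 5 bins just inside had reference steps of 1.0002 to 1.0024 and the 5 just outside had 0.9988 to 0.9997. The bins just inside had steps of 1.34 to 1.86 on KO and 1.16 to 1.40 on induced. Those just outside had 0.44 to 1.94 on KO and 0.94 to 1.22 on induced. Bins on either side of the limit thus overlapped on the KO and induced arrays.

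**Figure D1:**
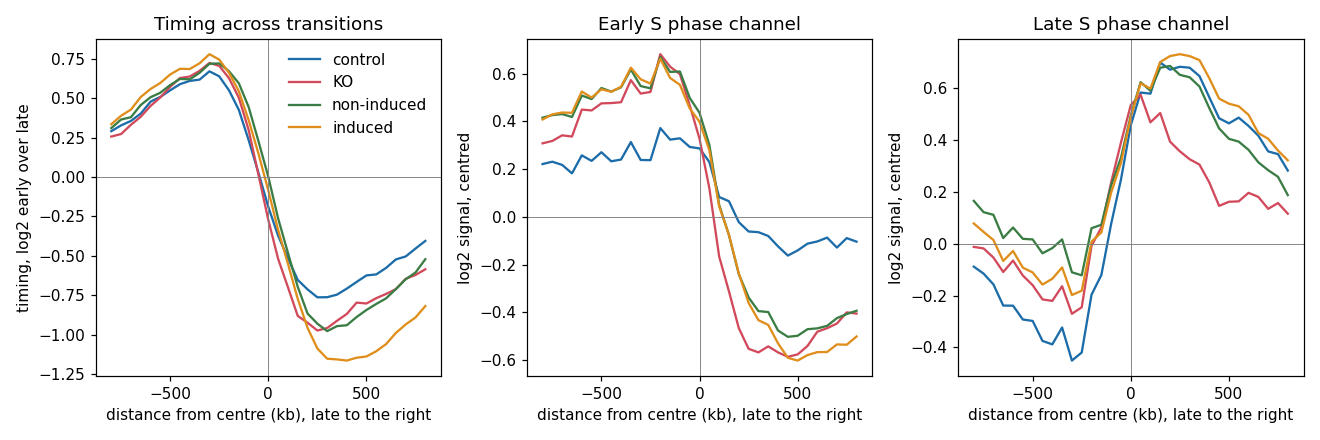
Mean timing (left, log2 early over late) and mean centred log2 signal of the early S phase (middle) and late S phase channel (right) against distance from the transition centre in kb, with the late side to the right; each line is 1 array averaged over up to 675 transitions. Timing passes from 0.55 to -0.71 on control and from 0.66 to -0.96 on induced between 200 kb on the early side and 200 kb on the late side, and on control most of that change is in the late channel.

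The first question was whether the transitions of the reference profile were present on the KO and induced arrays. Across a transition bin the early neighbour had a mean timing of 0.49 on control, 0.53 on KO, 0.62 on non-induced and 0.62 on induced. The late neighbour had -0.68, -0.89, -0.78 and -0.89 in the same order. Control was thus the lowest of the 4 on the early side and the least late on the late side. The mean step was 1.17 ± 0.31 on control, 1.42 ± 0.51 on KO, 1.40 ± 0.34 on non-induced and 1.51 ± 0.36 on induced (SD over 983 bins of 1 array).

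As a share of the spread of each array, the mean step was 64.5% on control, 61.2% on KO, 67.5% on non-induced and 56.0% on induced. The induced array thus had the highest step in log2 units and the lowest in units of its own spread. A step of 1.0 or more in the reference direction was present in 79.5% of transition bins on KO (781, interval 76.8 to 81.9) and in 91.8% on induced (902, 89.9 to 93.4). Over all 10485 bins with both neighbours measured, steps of that size in either direction occurred in 17.2% on KO and 16.1% on induced. The arrays that made the choice had such steps in 70.5% of transition bins on control and 87.4% on non-induced, beside 8.94% and 12.2% of all bins, from which nothing is read.

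Divided to a common spread, the same share was 65.9% on KO and 57.9% on induced, so that their order was turned. When control alone chose the bins (937), the mean step was 1.44 on KO, 1.15 on non-induced and 1.29 on induced. When non-induced alone chose them (1274), it was 0.92 on control, 1.21 on KO and 1.48 on induced. In each case the array from the same slide had the higher step of those not used.

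**Figure D2:**
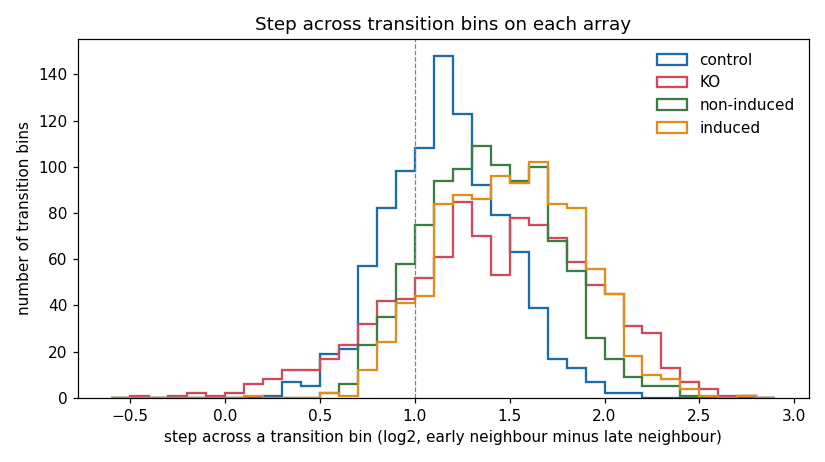
Histogram of the step across the 983 transition bins (early neighbour minus late neighbour, log2) on each of the 4 arrays, in bins of 0.1; the dashed line marks 1.0. The choice limits the spread of control and non-induced; the KO distribution runs from -0.42 to 2.80, and has the most bins below 0.5 (45).

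On KO the step was below 0.5 in 45 bins, against 1 on induced, and it ran against the reference in 5. Control and non-induced, whose steps the choice holds up, had 13 and 0. With bins chosen by control only, the SD of the step was 0.51 on KO, 0.51 on non-induced and 0.51 on induced. With bins chosen by non-induced only, it was 0.45 on control, 0.62 on KO and 0.34 on induced. KO thus had the higher SD than induced under the second choice but not under the first. In each choice the choosing array shared its slide with only 1 of KO and induced. In those 45 bins the mean step was 0.26 ± 0.20 on KO (chosen by this value), beside 0.90 ± 0.25 on control, 1.41 ± 0.28 on non-induced and 1.45 ± 0.28 on induced (SD over bins). The control and non-induced values are bound together by the choice, so nothing is read from them. The timing of the transition bin itself lay between that of its neighbours in 83.6% of bins on KO (822), against 94.0% on control, 94.9% on non-induced and 97.6% on induced.

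Probes inside a transition bin gave a measure of slope that the choice did not use in the 375 transitions of 1 bin, since only the neighbours entered the step. In these bins timing changed toward the early side by 0.35 ± 0.25 log2 per 100 kb on control, 0.48 ± 0.38 on KO, 0.43 ± 0.27 on non-induced and 0.43 ± 0.27 on induced (SD over bins). The slope pointed to the early side in 92.5%, 87.7%, 94.4% and 95.7% of them in the same order. In 9502 other bins with measured neighbours the mean slope toward the earlier neighbour was 0.07 to 0.09, and it pointed there in 58.3% to 62.4%.

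The 2 channels did not share the step equally. From the late to the early neighbour the early S phase signal was higher by 0.30 log2 on control, 0.98 on KO, 0.79 on non-induced and 0.79 on induced. The late S phase signal was lower by 0.87, 0.44, 0.61 and 0.72 in the same order. The early channel thus carried 25.3% of the step on control and 69.1% on KO, which lay on the same slide, and 56.2% and 52.3% on non-induced and induced. Scaling factors of the scanner software also differed between arrays, from 4.75 to 6.47 in green and from 1.77 to 4.02 in red. Their part in the split between channels was not tested.

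Beyond the transition the mean profiles turned back. At 400 kb on the late side timing was -0.71 on control, -0.87 on KO, -0.94 on non-induced and -1.16 on induced, and at 800 kb it was -0.40, -0.58, -0.52 and -0.82. At 800 kb on the early side all 4 arrays were between 0.26 and 0.33, below the 0.61 to 0.68 at 400 kb. As measured, the arrays thus lay further apart on the late side than on the early one, but the values are not corrected for the unequal spread of the arrays.

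The second question was whether transition bins differed in timing between KO and control, and between induced and non-induced cells. By label the non-induced cells are also a suv4-20h mutant. KO minus control was -0.08 ± 0.43 (SD over 983 bins, -0.22 on KO against -0.14 on control). A call of later or earlier needed a difference of 0.25 of the reference array's 10th to 90th percentile distance and of 3 times the standard error over probes. For KO the size needed was 0.45 log2, and 17.1% of transition bins were later (168, interval 14.8 to 19.6) and 10.7% earlier (105, 8.82 to 12.8). Over all autosomal bins 22.0% were later and 8.19% earlier.

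The comparison with 4003 other bins of the same range of reference timing depended on the probes and bins used. The interquartile range of the difference was 0.61 in transition bins and 0.95 in those bins, of which 31.2% were later and 14.4% earlier. With probes well above background only, it was 0.60 and 0.67, and 21.7% of transition bins were later against 18.4% of bins of like timing. With 10 or more probes the later shares were 19.0% and 18.7%, and with 100 kb bins 16.4% and 16.5%. The share of later transition bins relative to all bins depended on the processing. It was 23.0% of transition bins against a background of 21.1% with loess, and 19.9% against 14.6% with normexp background correction. With arrays divided to a common spread it was 8.22% against 13.4%. With quantile normalization it was 5.33%, beside 18.3% of other bins of like timing. Centred on the bin median instead of the probe median, 7.22% of transition bins were later and 19.9% earlier on KO. The shares of all bins under that centring are not given here, so nothing is read from these values.

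Induced minus non-induced was -0.07 ± 0.19 (SD over 983 bins, -0.08 on induced against -0.004 on non-induced). With 0.52 log2 needed for a call, 1.22% of transition bins were later (12, interval 0.632 to 2.12) and 0.102% earlier (1). Over all autosomal bins 11.4% were later and 0.477% earlier, and over other bins of like timing 13.2% and 0.625%. The interquartile range of the difference was 0.24 in transition bins and 0.51 in other bins of like timing. Under the alternatives the later share of transition bins was 0.203% to 2.36%, but the backgrounds also moved. Of all bins and of bins of like timing, 1.83% and 3.53% were later with arrays scaled, where transition bins had 0.374%. With quantile normalization these were 1.17% and 2.26% against 0.225%, and with normexp 2.34% and 2.69% against 1.77%. The later share was thus lower in transition bins in each of these settings, by a small margin with normexp.

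Non-induced and control, whose labels state neither deletion nor induction, lay on different slides. Their difference in transition bins was 0.14 ± 0.40 (SD over 983 bins), with 6.21% later (61) and 19.5% earlier (192), beside 10.5% and 8.56% of all bins. Both arrays chose these bins, so the values are a description and no yardstick for the other comparisons.

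**Figure D3:**
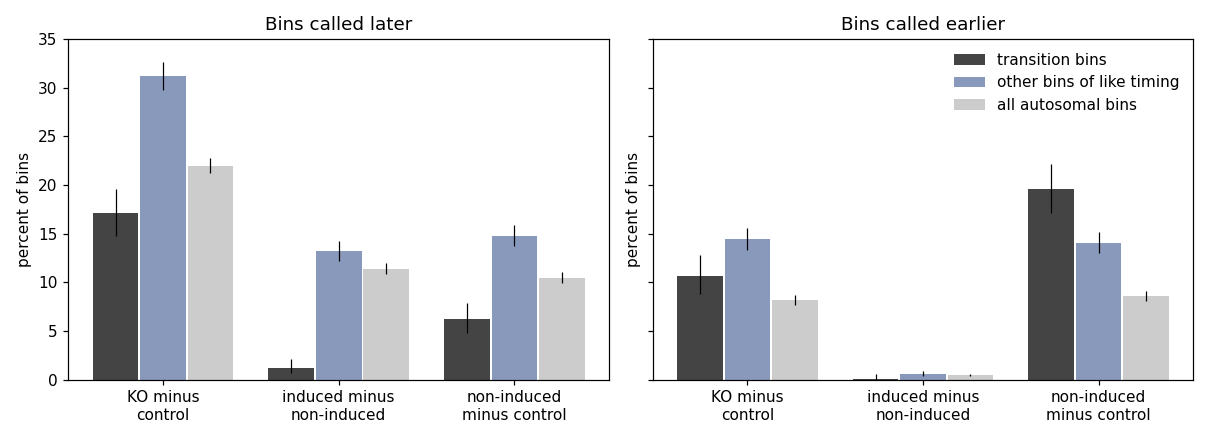
Percent of bins called later (left) and earlier (right) in each comparison, for 983 transition bins, 4003 other bins of like reference timing and all 11325 autosomal bins; bars start at 0 and lines are 95% exact binomial intervals, which cover counting over bins only. For induced minus non-induced, 1.22% of transition bins were later beside 11.4% of all bins.

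The sides of a transition did not differ alike. KO minus control was 0.04 ± 0.35 in the early neighbour, -0.08 ± 0.43 in the transition bin and -0.21 ± 0.39 in the late neighbour (SD over 983 bins). Induced minus non-induced was -0.01 ± 0.20, -0.07 ± 0.19 and -0.12 ± 0.20. As measured, KO and induced were thus later on the late side than their reference arrays. Over all autosomal bins the mean differences were -0.18 for KO minus control and -0.16 for induced minus non-induced. Beside these, the late neighbour was only slightly later for KO and was less late for induced. Transition bins and early neighbours were less late than all bins in both comparisons. When the arrays were divided to a common spread, KO gave -0.07, -0.03 and -0.02 and induced gave -0.13, -0.05 and 0.08, so that the larger difference moved to the early side and the late side of induced changed sign. With bins chosen by the array outside the comparison, the unscaled values were 0.06, -0.09 and -0.23 for KO (1274 bins) and 0.03, -0.05 and -0.10 for induced (937 bins).

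The third question was whether the boundaries had moved along the chromosome. The boundary on an array is where a running 100 kb mean of probes crosses the level midway between the plateaus 400 to 800 kb to each side, each plateau taken from that array. A positive displacement is toward the late side, so the early domain is longer. Between KO and control the median displacement was 6.2 kb over 592 measurable transitions (SD 113), and 53.7% lay on the late side (interval 49.6 to 57.8). The difference between odd and even probes, analysed apart and divided by 2, had a median size of 24.3 kb. The displacement itself, taken without its sign, had a median size of 49.2 kb.

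Between induced and non-induced the median was 6.65 kb over 618 transitions (SD 55.9), with 58.1% on the late side (54.1 to 62.0) and an odd to even difference of 20.9 kb. Boundaries of the pair lay within 100 kb of each other at 92.7% of transitions for induced, 75.8% for KO and 58.3% for non-induced against control. Non-induced boundaries lay a median 54.3 kb to the late side of control over 605 transitions (SD 107), with 71.6% on the late side. There the odd to even difference, divided by 2, had a median size of 30.7 kb, and the displacement one of 78.7 kb. The displacement between the reference arrays, both of which chose the transitions, was larger than the median of KO against control or of induced against non-induced.

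The direction of the small medians depended on the level used. With the reference array's mid-level on both arrays, 47.4% of KO boundaries and 34.5% of induced boundaries lay on the late side, and the direction was also turned with normexp correction (39.7% and 48.5%) and quantile normalization (49.7% and 48.2%). Non-induced boundaries lay on the late side of control in 67.2% to 79.3% of transitions under the 22 alternatives.

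Displacements of 100 kb or more with odd and even probes on the same side were counted over transitions measured in all 3 versions. For KO 13.5% of 517 transitions lay to the late side (70) and 7.35% to the early side (38). For induced the shares were 2.97% (16) and 1.86% (10) of 538, and for non-induced against control 32.3% (171) and 6.60% (35) of 530. Large displacements were thus least frequent between induced and non-induced.

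**Figure D4:**
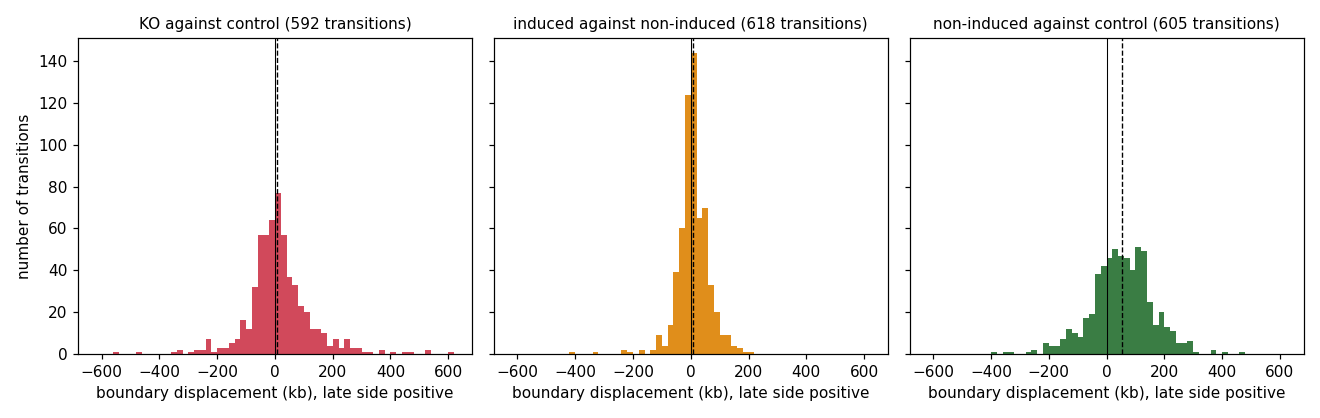
Histograms of boundary displacement in kb (late side positive, bars of 20 kb) over the transitions measurable on both arrays, for KO against control, induced against non-induced and non-induced against control; solid lines mark 0 and dashed lines the medians of 6.2, 6.65 and 54.3 kb. The induced histogram is the narrowest (SD 55.9 kb).

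KO against control and induced against non-induced share no array. Over the 575 transitions measured in both, Pearson's r of their displacements was 0.057 and Spearman's rho 0.054, given as a description across transitions that share probes. Of 19 transitions displaced by 100 kb or more in both, 12 lay on the same side. The timing differences of the 2 comparisons had r = 0.20 across the 983 transition bins and 0.49 across 9502 other bins. The other bins span all timings, and r was not computed over bins of like timing or corrected for the unequal spread of the arrays. The SD of induced minus non-induced was 0.19 in transition bins and 0.36 in other bins. Whether the 2 comparisons resembled each other less in transition bins was thus not tested.

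Transition width, the distance over which an array passed from 75% to 25% of its own plateau difference, differed in opposite directions in the 2 comparisons. This measure was added after the data were seen. The median width was 135 kb on control, 99.4 kb on KO, 139 kb on non-induced and 187 kb on induced. KO was narrower than control at 63.2% of 589 transitions, by a median of 24.9 kb (SD 106). Induced was wider than non-induced at 73.5% of 615, by a median of 32.5 kb (SD 77.3). Widths are set against plateaus, whose median difference was 1.05 on control, 1.33 on KO, 1.38 on non-induced and 1.71 on induced. The control and KO share was 59.8% to 68.7% and the induced share 67.7% to 76.5% under 11 alternatives.

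Single transitions show what these values rest on, each described at its bin with the largest reference step and the adjacent bins. The largest reference step, 2.07, lay at chr3:134600001-135000000 (build mm9, as are all coordinates here). Its step was 1.85 on control, 2.34 on KO, 2.30 on non-induced and 2.48 on induced. The bin on the late side was between -1.52 and -1.24 on all 4 arrays and that on the early side between 0.60 and 0.98, so this transition was present on each. KO lay 31.7 kb from control, and induced -43.7 kb from non-induced.

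The other transitions with the largest reference steps were also present throughout. They lay at chr9:97000001-97400000, chr10:92000001-92600000, chr15:66000001-66400000, chr3:50600001-51000000, chr1:73600001-73800000, chr5:101200001-101600000, chr5:107000001-107400000, chr3:120600001-121000000 and chr11:93400001-93800000. Over these 9 the steps were 1.62 to 2.12 on control, 1.60 to 2.48 on KO, 1.86 to 2.32 on non-induced and 2.06 to 2.44 on induced. KO boundaries at the 9 lay between -58.8 and 68.7 kb from control, which is less than 100 kb at each. The transition at chr10:92000001-92600000 was also among the 8 that were 3 bins long, and there induced lay 111 kb to the late side of non-induced, the only one of the 9 past 100 kb in that comparison.

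The largest KO displacements to the late side differed in which bins and arrays stood apart. In the second bin of chr9:75400001-75800000, from 75600001, timing was -0.49 on control, 0.80 on KO, -0.05 on non-induced and -0.16 on induced. The next bin on the late side was at -0.86, 0.32, -1.23 and -1.29, while in the first bin, from 75400001, all 4 arrays were above 0, from 0.43 on control to 0.94 on KO. KO was thus the only array above 0 in the later bins, and its boundary lay 448 kb to the late side of control (474 with odd and 300 with even probes). Induced lay 4.78 kb to the early side of non-induced there.

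At chr6:47400001-47800000 the KO boundary lay 531 kb to the late side of control. The bin on its late side, from 47400001, was at -0.72 on control, -0.07 on KO, 0.07 on non-induced and -0.35 on induced, and 300 kb beyond the centre the profiles were at -1.12, 0.22, -0.30 and -0.45. Control was the latest array at both places. The non-induced boundary lay 284 kb from that of control. Displacements of the same kind were 526 kb at chr6:71400001-71600000, 473 kb at chr8:88600001-88800000, 373 kb at chr9:95200001-95400000 and 365 kb at chr10:119200001-119600000. With odd probes these were 545, 168, 483 and 287 kb in the same order. With even probes they were 206, 31.1, 229 and 203 kb. The size on chromosome 8 was thus not repeated, and the control plateaus there were 0.73 and 0.42.

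At chr9:95200001-95400000 the early neighbour was at -0.39 on control and between 0.76 and 0.85 on the other 3 arrays, so that the control step was 0.57 against 1.49 to 1.91. Induced and non-induced lay within 34.6 kb of each other at all 6 of these transitions, while non-induced lay 8.18 to 401 kb to the late side of control.

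The largest KO displacements to the early side began with chr7:56600001-56800000, at -556 kb, where the boundary of control lay 567 kb from the centre and its plateaus were only -0.05 and -0.17. At chr14:71600001-71800000 the displacement was -477 kb. The early neighbour there was at 0.41 on control, -1.08 on KO, -0.25 on non-induced and -0.20 on induced, and the bin itself at -0.08, -1.42, -0.64 and -0.75. KO was the latest array in both, and its step of -0.42, over a bin of 6 probes, was the lowest of the 983. With normexp correction this displacement was 270 kb to the other side. The others were -343 kb at chr1:191200001-191400000, -280 kb at chr5:105000001-105400000 and -267 kb at chr13:15400001-15600000, and a further one on chromosome 18 (-337 kb). With odd probes these were -268, -236, -330 and -15.8 kb in the same order. With even probes they were -151, -91.7, -259 and -322 kb.

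For induced against non-induced the largest displacements were smaller. To the late side they were 174 kb at chr1:188400001-188800000, 164 kb at chr12:59800001-60000000, 162 kb at chr2:77200001-77400000, 157 kb at chr11:8800001-9200000, 150 kb at chr10:34000001-34400000 and 131 kb at chr7:13200001-13400000. At chr11:8800001-9200000 the steps were 1.44 on control, 1.24 on KO, 1.85 on non-induced and 1.997 on induced. The bin from 9000001 was at -0.25, -0.83, -0.27 and -0.16, so KO, not induced, stood apart in its timing. The displacement there was 139 kb with odd and 206 kb with even probes, and it was 8.13 to 206 kb under 15 alternatives. The other 5 turned to the early side under at least 1 alternative. With odd and even probes they were 226 and 48.1 kb on chromosome 1, 76.6 and 215 kb on chromosome 12, and 137 and 121 kb on chromosome 2. On chromosome 10 they gave 31.5 and 173 kb, and on chromosome 7 they gave 78.2 and 28.0 kb.

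To the early side they were -417 kb at chr10:84600001-84800000, -225 kb at chr19:57600001-57800000, -216 kb at chr7:138400001-138600000, -172 kb at chr9:109000001-109200000, -170 kb at chr3:38800001-39000000 and -124 kb at chr4:131200001-131400000. The first was -80.5 kb with odd and -10.0 kb with even probes, so its size was not repeated. With odd and even probes chromosome 19 gave -69.2 and -68.3 kb, chromosome 7 -167 and -29.6 kb, and chromosome 4 -36.7 and -36.8 kb. None of these reached the size with all probes. Chromosome 9 gave -208 and -135 kb, but the non-induced plateaus there were only 0.65 and 0.55. Except at the chromosome 3 transition, both plateaus of non-induced and of induced were above 0 at all of these displacements. Their boundaries thus lay between levels that were both above 0. At chr3:38800001-39000000 the bin was at -0.59 on control, -0.34 on KO, -0.69 on non-induced and -0.86 on induced, and induced was the latest. That displacement was -152 kb with odd and -100.4 kb with even probes. The induced boundary, at -249 kb from the centre, was interpolated between windows at -440 and -160 kb. Windows between them held fewer than 3 probes. Odd and even probes share that gap, so they do not show that the position was measured.

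**Figure D5:**
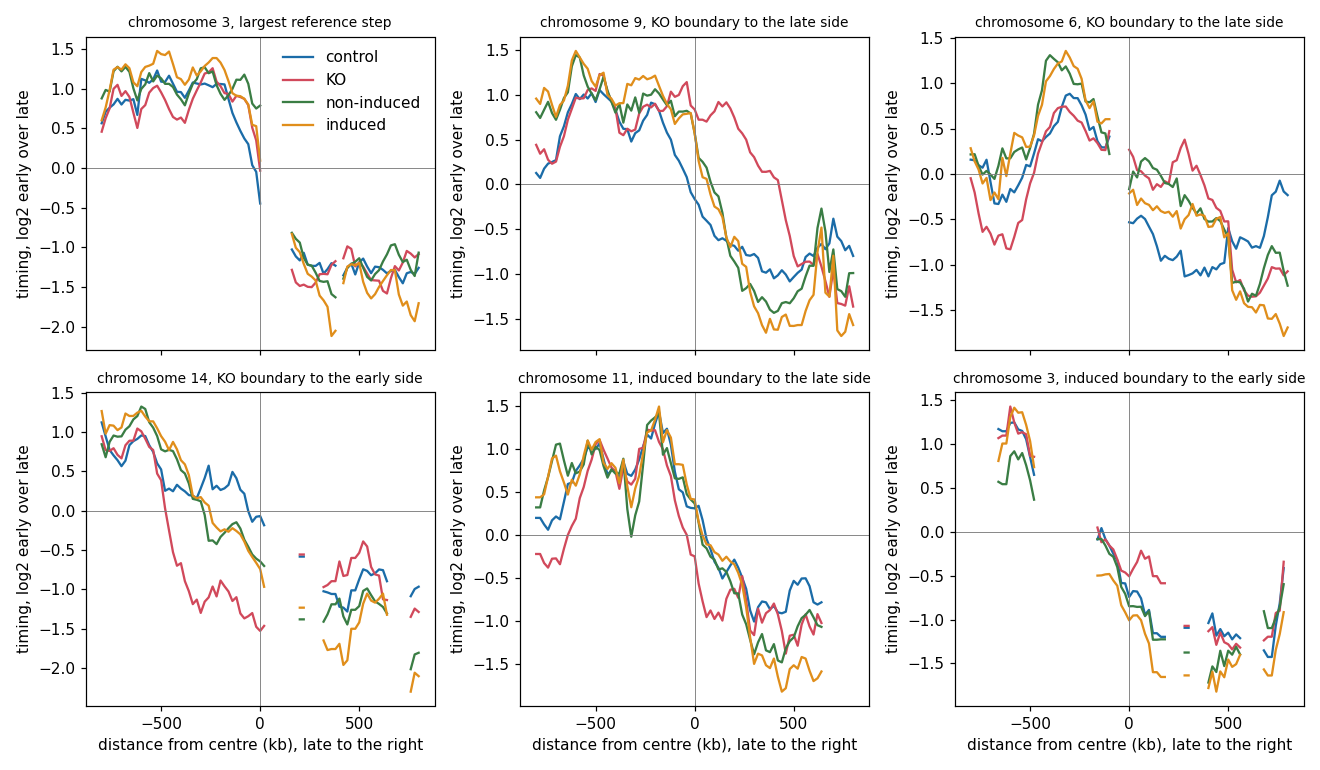
Running 100 kb mean timing (log2 early over late) of the 4 arrays against distance from the centre in kb, with the late side to the right, at 6 named transitions; gaps have fewer than 3 probes in the window. On chromosome 9 the KO boundary lies 448 kb to the late side of control. On chromosome 14 it lies at -477 kb, on the early side. Induced lies -4.78 kb from non-induced on chromosome 9 and -113 kb on chromosome 14. The latter was 46.0 kb with odd and -52.5 kb with even probes, so its direction was not repeated.

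Genes and DNA sequence at these transitions were not analysed here, since the tables at hand are of another build than mm9, and the deletion of the Suv4-20h1 allele was not checked on these arrays.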

How the data were processed

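Timing was measured on 4 two-channel Agilent arrays, 1 per group, and probe positions are on mm9 per the file headers. The file headers name Agilent Feature Extraction 11.5.1.1 and the submitters' processing notes 9.1. Each channel's processed signal is an intensity that the authors deposited after background subtraction and a linear dye factor per the file headers. The deposited log10 ratio of the value table was late over early and was used as an alternative, and deposited flags of spot quality have values of 0 or 1.

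Timing was the log2 ratio of green over red deposited processed signal of 174305 genomic spots per array. Repeated spots were averaged per probe, and the median of 161460 autosomal probes was set to 0 on every array. Bins of 200 kb needed 5 probes (median 15). Probes well above background in both channels made up 88.5% to 94.7% of an array. Spots with outlier flags (154 to 447) and saturated spots (11 to 28) were kept. Transition bins, boundaries (100 kb windows every 20 kb, with 3 or more probes) and widths are defined beside the results. Named transitions were the 10 largest reference steps, the 6 longest runs, and the 6 largest displacements per direction and comparison for which odd and even probes had the same sign. The members, lists and named regions were chosen with earlier results of these data known. Calls and boundary positions were tested on simulated data. Alternatives covered scaling, background correction and loess (both with limma 3.58.1), quantile normalization, bin size, probe filters, thresholds, boundary levels and the arrays that choose the bins. No test is possible with 1 array per group. Software was R 4.3.3, scipy 1.17.1, pandas 2.3.3, numpy 2.4.6 and Python 3.11.15.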

Additional observations from a re-analysis of the deposited data

Results flagged for a closer look

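At the transition of chr2:77200001-77400000 the boundary of KO lay -118 kb from control, on the early side, and that of induced 162 kb from non-induced, on the late side. With odd probes these were -253 and 137 kb, and with even probes -85.9 and 121 kb. The plateau on the early side was below 0 on all 4 arrays, from -0.30 on control to -1.14 on induced. The bin itself was at -0.17 on control, -0.92 on KO, -0.82 on non-induced and -0.95 on induced, so control was the earliest of the 4. At chr7:138400001-138600000 KO lay 108 kb to the late side and induced -216 kb, on the early side. With odd probes these were 163 and -167 kb, but with even probes only 12.6 and -29.6 kb, so the sizes were not repeated. The bin was at -0.19 on control, 0.29 on KO, 0.21 on non-induced and 0.10 on induced. Both plateaus there were above 0 on non-induced and on induced. Both transitions drew attention because the 2 comparisons, which share no array, pointed in opposite directions with odd and even probes of each on the same side. The difference was not tested in either.

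The width of transitions also differed in opposite directions, with a median change of -24.9 kb between control and KO and 32.5 kb between non-induced and induced. The difference was not tested. The plateau difference was higher on KO and on induced than on the reference array of the same slide (1.33 against 1.05 and 1.71 against 1.38). Its part in the widths was not tested.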

How the results depend on the processing

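Counting alternatives, 104 of 165 values of the 10 main results stayed close to those given, 50 moved and 11 changed direction; of 352 values for named displacements, 20 changed direction. The number of transition bins was 453 with normexp correction, 521 with 10 or more probes, 1571 and 398 with reference steps of 0.8 and 1.3, and 557 and 542 with odd and even probes. The share with a step of 1.0 or more on KO was 65.9% with arrays scaled to 1 spread, 72.0% with quantile normalization, 70.2% with normexp, 70.0% and 91.7% at steps of 0.8 and 1.3, and 65.2% with bins chosen by non-induced only. On induced it was 57.9%, 67.5%, 89.0%, 80.1% and 99.7% in the same settings, 70.8% with bins chosen by control only and 88.5% with odd probes.

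Later bins on KO made up 8.22% with scaling, 5.33% with quantile normalization, 23.0% with loess, 19.9% with normexp, 21.7% with probes well above background, 20.9% at a step of 1.3, 12.9% with odd probes, 6.61% at 1.5 times the call threshold and 7.22% with bin-median centring. Of other bins of like timing, 23.8%, 18.3%, 27.5%, 22.9% and 18.4% were later in the first 5 of these settings. Settings in this paragraph without a share of other bins are not read as results about transition bins. Earlier bins made up 6.85% with scaling, 8.36% with loess, 6.18% with normexp, 12.9% with 100 kb bins, 7.54% at 1.3, 3.97% at the higher threshold and 19.9% with bin-median centring. Of other bins of like timing, 10.6% with scaling, 13.8% with loess, 11.9% with normexp and 15.3% with 100 kb bins were earlier. Later bins on induced made up 0.374% with scaling, 0.225% with quantile normalization, 0.576% with 10 or more probes, 2.36% at 0.8, 0.203% at the higher threshold and 0.305% with bin-median centring. Of other bins of like timing, 3.53% with scaling, 2.26% with quantile normalization and 8.83% with 10 or more probes were later. The share of bins below 0 was turned to 44.1% with quantile normalization and 41.2% with bin-median centring for KO, and to 22.8% with the latter for induced.

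The share of KO boundaries on the late side was turned to 49.7% with quantile normalization, 42.6% with loess, 39.7% with normexp, 47.4% at the reference mid-level, 49.8% at timing 0 and 47.6% at the reference mid-level with scaled arrays (added after the data were seen). For induced it was turned to 48.2%, 48.5% with normexp, 34.5%, 36.0% and 43.1% in the same settings without loess, and moved to 53.6% with probes well above background, 53.4% with 100 kb bins, 62.2% at a step of 1.3 and 63.6% with plateaus 1.0 or more apart. Narrower transitions on KO made up 68.7% with loess and 67.2% with normexp, and wider ones on induced 67.7% with even probes, 67.9% with normexp and 68.8% with bins chosen by control only. The cause of these changes was not tested.

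Among named displacements of KO, chromosome 14 from 71600001 turned to 270 kb with normexp, chromosome 13 from 15400001 to 2.41 kb at the reference mid-level and 21.7 kb with scaling added, and chromosome 7 from 56600001 to 9.20 kb with the latter. For induced, chromosome 7 from 13200001 turned to -2.40 kb with normexp, -30.8 kb at the reference mid-level, -26.8 kb at timing 0 and -16.4 kb at the reference mid-level with scaling. Chromosome 12 from 59800001 turned to -1.68 kb with probes well above background and to -80.1, -268 and -47.3 kb at those 3 levels. At the reference mid-level and timing 0, chromosome 1 from 188400001 turned to -233 and -124 kb and chromosome 10 from 34000001 to -38.0 and -62.9 kb. Chromosome 2 from 77200001 turned to -20.0 kb at the reference mid-level, chromosome 19 from 57600001 to 13.3 kb at timing 0, and chromosome 9 from 109000001 to 23.6 kb at timing 0 and 1.70 kb with a 60 kb window.

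No paired analysis was possible because each group holds 1 array and no comparison has a test. Leaving out an array leaves no group to compare. Dim signal is a limit on several arrays: well above background were 94.0% of probes of the late neighbours on induced and 94.7% on KO in the early channel, and 94.1% of those of the early neighbours on control in the late channel.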

Other observations

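Chromosome X took no part in the choice of bins above. Of 612 testable bins there, 15 (2.45%) met the same limit, against 9.38% on autosomes. The mean step in the 15 was 1.23 ± 0.24 on control, 1.62 ± 0.44 on KO, 1.11 ± 0.15 on non-induced and 1.20 ± 0.17 on induced (SD over bins of 1 array). KO thus had the highest step on this chromosome, while induced had it on the autosomes.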
